A study of Rattus with 4 samples.

Results

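Peaks from RBM25 immunoprecipitates that lay in coding sequence and away from introns are described here. RBM25 is a splicing factor with an RNA recognition motif that associates with the U1 small nuclear ribonucleoprotein. The particle marks the 5' end of introns, so RBM25 is known mainly for its part in choosing splice sites. A peak inside a coding exon lies on sequence that mature mRNA and unspliced RNA share. A peak that also holds intron sequence takes in an edge between exon and intron of some annotated transcript. Long coding exons, such as the giant exon of Ahnak, offer many positions with no splice site nearby.

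The members were chosen by the deposited annotation of each peak, which had to name coding sequence and neither intron nor 5' UTR. In replicate 1, 203 of 2696 peaks met this rule, and in replicate 2, 673 of 8108. The annotation covers only the bins of the peak itself, so a member can still lie close to an intron. No distance to a splice site was measured. Both lists come from RBM25 immunoprecipitates (IP) of H9C2, a rat line of myoblasts from embryonic heart, treated with ultraviolet light at 400 mJ/cm2. The series has 2 IP samples and 2 input samples, all from lysates treated with DNase and then with MNase, sequenced as stranded libraries of 150 nt paired reads. The inputs were not analysed here. The question of the IP was which RNAs RBM25 binds. The RNA-seq arm of the study used cells that overexpress RBM25, and the labels leave unstated whether the IP cells did. They also do not state if the replicates are separate cultures, so every p-value here measures peaks within these lists.

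Tags are the height that the submitters gave each peak, read here as reads per 50-nt bin, a mean over bins where a peak is longer than 1 bin. They were not scaled for depth, which is unknown. The lowest tag value of a member was 19 for replicate 1 and 20 for replicate 2. Tags can follow the amount of an RNA as well as its binding, and these cannot be told apart here. A peak is said to recur when a peak of the other list overlaps it on the same strand. Intervals are 95% Wilson intervals over peaks and cover counting error only. Of the 9 myoblast markers listed, Tpm1 had a peak in both lists and Vim and Acta2 in replicate 2. Des, Tpm2, Myog, Myod1, Chrna1 and Myh3 had none. Among markers of other cell types, Col1a1, Col1a2, Col3a1 and Tnnt2 had peaks in both lists. The fibroblast markers Postn and Pdgfra, the cardiomyocyte markers Myh6, Tnni3, Actc1 and Ryr2, the 3 endothelial markers and the 3 leukocyte markers had none in either. A list of peaks is no measure of expression, so the label of the line was not tested by this.

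Coding peaks away from introns were a constant part of the sense peaks, those on the strand of their gene. They made up 16.9% of 1200 sense peaks in replicate 1 and 17.3% of 3887 in replicate 2. Sense peaks were 44.5% of all peaks in replicate 1 and 47.9% in replicate 2. Antisense peaks, on the strand opposite their gene, were 51.6% and 49.3%, so sense peaks were not the majority in either list. Nearly all members lay wholly in coding sequence, 201 of 203 and 661 of 673. The others held part of a 3' UTR, 1 peak in replicate 1 and 10 in replicate 2, or part of a noncoding exon, 1 and 2 peaks. The smallest coding fraction of a member was 0.62 in replicate 1 and 0.52 in replicate 2. Just outside the rule, 24 peaks of replicate 1 and 69 of replicate 2 had a coding fraction of at least 0.98 and a trace of intron.

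The members were short and of ordinary height. In replicate 1, 186 were 51 nt long and 17 were 101 nt. In replicate 2, 614 were 51 nt long, 53 were 101 nt, 5 were 151 nt and 1, in Ccdc80, was 201 nt. The median was 23 tags in replicate 1 (quartiles 20 and 27) and 25 in replicate 2 (22 and 31). Peaks with both coding and intron sequence, called boundary peaks here, had medians of 23 and 26 tags. No peak touched another of its own list and strand in either list, so neighbouring bins stand as 1 peak. A run of bins that crosses from an exon into an intron is therefore a boundary peak and leaves no member beside it.

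Most genes held 1 member. The 203 members of replicate 1 fell in 150 genes, of which 123 held a single one, and the 673 of replicate 2 in 478 genes, of which 364 did. Genes with 3 or more members numbered 10 in replicate 1 and 36 in replicate 2 and took 22.7% of the members in each list. Both lists had a member in 104 genes of the 524 with a member in either list. A boundary peak was also present in 71 of the 150 genes of replicate 1 (47.3%) and in 343 of the 478 of replicate 2 (71.8%). Among all genes with a sense peak, 445 of 657 in replicate 1 and 1137 of 1529 in replicate 2 held one. The share in member genes was thus below that of all such genes in replicate 1 and near it in replicate 2. Where a gene held both, the median distance from a member to the nearest boundary peak of its list was 3225 nt in replicate 1 and 950 nt in replicate 2. Some members stood much closer. In replicate 2 the members of Anp32b (84 tags) and Septin11 (82 tags) were each 50 nt from a boundary peak.

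Ahnak held the most members of any gene in each list. It encodes a giant scaffold protein that lies beneath the plasma membrane and in muscle costameres. Its 9 members in replicate 1 had between 22 and 50 tags with a median of 27, and its 19 in replicate 2 between 20 and 82 with a median of 26. All lay on chromosome 1 between 205895050 and 205910800 (mRatBN7.2, plus strand), a span of 15750 nt in which 28 of 315 bins were called in either list. No boundary peak was called in Ahnak in either list.

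Only 3 Ahnak bins were called in both lists. At 205898650 to 205898700 the peak stood at 32 tags in replicate 1 against 24 in replicate 2. At 205905600 to 205905650 it had 27 and 55, and at 205909600 to 205909650 it had 43 and 23. Replicate 1 was the higher at the first and the third of these positions and replicate 2 at the second. The tallest Ahnak peak of each list was absent from the other: 50 tags at 205907800 to 205907850 in replicate 1, and 82 tags at 205898800 to 205898850 in replicate 2. The latter began 100 nt after the end of a bin that both lists called. The same-list antisense strand carried a peak at 4 of the 9 members in replicate 1 and at 9 of the 19 in replicate 2. Over the whole gene, Ahnak had 10 antisense peaks in replicate 1 and 17 in replicate 2, close to its numbers of members.

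Plec, which encodes plectin, a linker of intermediate filaments to other cytoskeletal systems, came next with 7 members in replicate 1 and 12 in replicate 2. They lay on chromosome 7 between 107891700 and 107908850 (minus strand). Replicate 1 members had between 21 and 32 tags and replicate 2 members between 21 and 63. The tallest of replicate 2 stood close together, at 107896250 to 107896300 with 63 tags, 107896100 to 107896150 with 52 and 107895650 to 107895700 with 51. None of these had a replicate 1 peak in its bin, and none had an antisense peak. A replicate 1 peak of 30.5 tags lay at 107896350 to 107896450, with 1 uncalled bin between it and the tallest. The single Plec member found in both lists, at 107891700 to 107891750, had 21 tags in each. Plec also held 2 boundary peaks in replicate 1 and 3 in replicate 2. Its antisense peaks numbered 7 in replicate 1 and 17 in replicate 2.

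**Figure D1:**
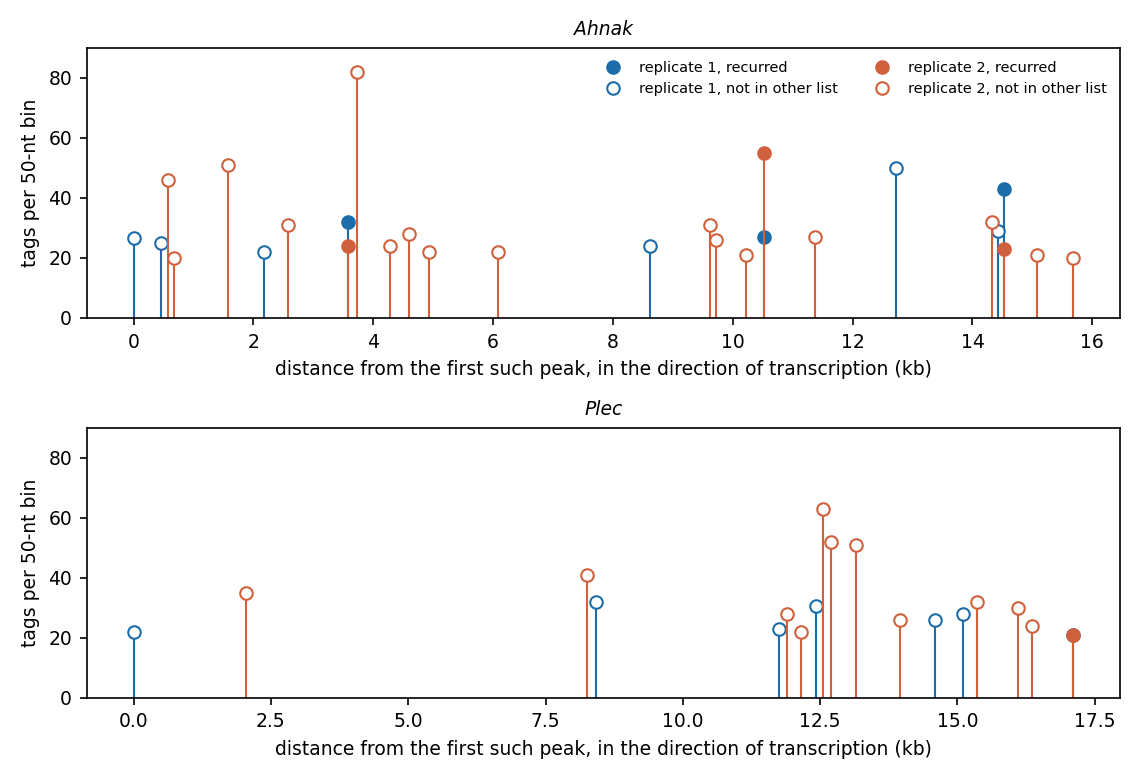
Coding peaks away from introns along Ahnak and Plec. The x axis is distance in kb from the first such peak in the direction of transcription and the y axis is tags per 50-nt bin; blue is replicate 1, orange replicate 2, filled points recurred in the other list. The tallest peaks, 82 tags in Ahnak and 63 in Plec, are open points of replicate 2, and at the right end of Plec 2 filled points of 21 tags lie on each other.

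Genes of other filament and spindle proteins followed. Nes, the gene of the intermediate filament protein nestin, had 2 members in replicate 1 (21 and 23 tags) and 8 in replicate 2 (20 to 34 tags). None of the Nes bins was common to both lists, and no boundary peak was called there. Macf1, which encodes a linker of microtubules and actin, had 2 members in replicate 1, and both recurred. At 135643100 to 135643150 on chromosome 5 the tags were 23 and 29, and at 135742550 to 135742600 they were 20 and 49, higher in replicate 2 at both. The 7 Macf1 members of replicate 2 were spread over 129000 nt, with 15 boundary peaks of that list in the same gene. Dst, the dystonin gene of the same plakin family, had 2 members in each list, of which 1 pair overlapped with 24 and 23 tags. Numa1, the gene of a protein of the mitotic spindle pole, had 4 members in replicate 1 and 5 in replicate 2. The 3 pairs of Numa1 had 24 and 22, 22 and 20, and 29 and 27 tags, and each was slightly higher in replicate 1.

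Genes of nuclear proteins came next, of which Ankrd11 and Srrm2 are on the list of long coding exon genes and Safb2 and Chd3 are not. Ankrd11, which encodes a chromatin regulator, had 4 members in each list within 1500 nt of chromosome 19. Of these, 3 pairs overlapped. They had 23, 32 and 20 tags in replicate 1 and 34, 34 and 31 in replicate 2, so replicate 2 was higher at each. Srrm2, the gene of a large scaffold protein of nuclear speckles, had 3 members of 21 to 28 tags in replicate 1 and 5 of 22 to 27 tags in replicate 2. Its 1 overlapping pair had 28 tags in replicate 1 and 22.5 in replicate 2. Safb2, a scaffold attachment factor gene, had 2 members in replicate 1, and both recurred, with 26 and 21 tags in replicate 1 and 26 and 29 in replicate 2. Chd3, which encodes a nucleosome remodelling ATPase, had 2 members in replicate 1 and 3 in replicate 2, with 1 overlapping pair of 26.5 and 36.5 tags. Its other replicate 1 member, of 20 tags, overlapped a boundary peak. Cit, Eif3b, Nbas and Taok2 had as many members as Chd3, 5 in all.

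Matrix genes and Ccdc9 completed the genes with the most members. Emilin1, which encodes an elastic fibre glycoprotein, had 2 members in replicate 1 and both recurred, with 19 and 28 tags against 32 and 46 in replicate 2. Its tallest member, 75 tags in replicate 2 at chromosome 6, 25458550 to 25458600, had no counterpart in replicate 1 and no antisense peak. Ccdc80, which encodes a secreted matrix-associated protein, had 4 members in replicate 1 and 3 in replicate 2. One of them, of 51 tags in replicate 1, lay inside the 201-nt peak of replicate 2, which had 28.5 tags per bin. A further Ccdc80 member of replicate 1, with 21 tags, overlapped a boundary peak of replicate 2. Ccdc9 had 3 members in replicate 1 and 4 in replicate 2. Its 2 pairs differed in direction: 33 tags in replicate 1 stood against 60 in replicate 2 at 76980850 to 76980900 on chromosome 1, and 43 against 29 at 76989300 to 76989350.

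**Figure D2:**
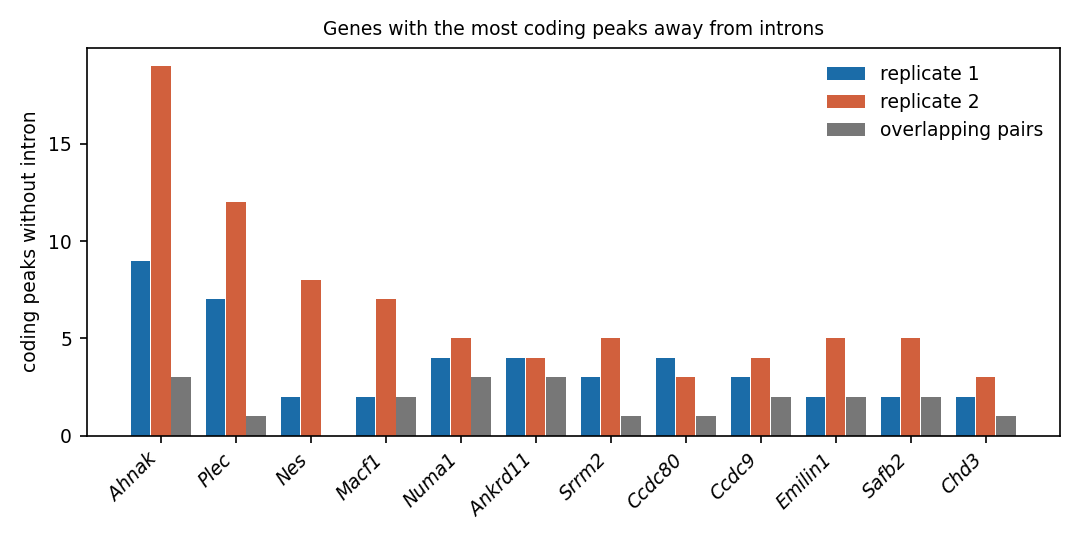
The 12 named genes with the most coding peaks away from introns. Bars give the number of such peaks per gene in replicate 1 (blue) and replicate 2 (orange) and the number of overlapping pairs (grey). Ahnak leads with 9 and 19 peaks and 3 pairs, and Nes has 2 and 8 peaks and no pair.

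In all, 20 of 63 genes listed as having long coding exons held a member in either list. In replicate 1, 13 of the 19 listed genes with a sense peak held one (68.4%), beside 22.8% of all 657 genes with a sense peak. In replicate 2 the figures were 17 of 22 (77.3%) and 31.3% of all 1529. Of the sense peaks in these genes, 37 of 66 were members in replicate 1 and 73 of 153 in replicate 2, beside 16.9% and 17.3% of all sense peaks. A long exon leaves more room away from introns, which is close to what the rule selects, so no test was made. Of the 37 members in replicate 1, 12 recurred (32.4%, 19.6 to 48.5), against 82 of 166 in other genes (49.4%, 41.9 to 56.9). In replicate 2 it was 13 of 73 (17.8%, 10.7 to 28.1) against 77 of 600 (12.8%, 10.4 to 15.7). The intervals overlap in each list, the order differs between lists, and the difference was not tested. Ahnak2, a relative of Ahnak, held 2 members in each list and none was common: its tallest, 111 tags in replicate 1 at chromosome 6, 131836100 to 131836150, had no antisense peak. Fat1, a protocadherin gene, had 1 pair with 21 and 20.5 tags.

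Of 53 listed genes with few or no introns, few had a sense peak, and most of those held a member: 2 of 2 in replicate 1 and 4 of 6 in replicate 2 (66.7%). The rule leaves little else for a gene without introns, so this is a description. The linker histone gene H1f2 had 1 pair with 32 tags in replicate 1 and 22 in replicate 2. The core histone gene H2ac20 had 108 tags in replicate 1 at chromosome 2, 183780150 to 183780200, with no peak in replicate 2. Hist2h2aa3, a further histone gene, had 1 member of 20 tags in replicate 2 and none in replicate 1. Junb, Purb and Sox12, genes of transcription regulators, had 1 member each in replicate 2, with 23, 23 and 21 tags. Histone genes belong to a family of near-identical copies, and the submitters' handling of reads that match several copies is not given in the sources used here. Mitochondrial coding sequence, which has no introns, held 2 members in replicate 1, in COX1 and COX2, and 3 in replicate 2, in ATP6, COX2 and ND5. None of these recurred.

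Recurrence was next compared between the members and the most similar peaks. In replicate 1, 94 of 203 members recurred (46.3%, 39.6 to 53.2), against 547 of 750 boundary peaks (72.9%, 69.6 to 76.0). The odds ratio was 0.32 (two-sided Fisher exact test, adjusted p = 1.6e-11 over 6 tests). In replicate 2, 90 of 673 members recurred (13.4%, 11.0 to 16.2) against 550 of 2581 boundary peaks (21.3%, 19.8 to 22.9), with an odds ratio of 0.57 (Fisher exact adjusted p = 3.1e-06). Among all sense peaks 64.6% recurred in replicate 1 and 19.9% in replicate 2, so the members stood below the background in both. Boundary peaks made up 62.5% and 66.4% of that background. Of coding peaks with 5' UTR, 79.3% recurred in replicate 1 and 21.1% in replicate 2. Of the sense peaks in no other class, 48.2% and 25.2% did, so a share this low in replicate 1 is not particular to the members. The share is of a longer list in replicate 2, so the lists' shares are not set against each other. The 2 lists also count largely the same overlaps from either side, as 84 pairs of members supply most recurrent members of each. Their p-values are therefore not independent of each other. Members of 1 gene share a transcript and are not replicates of each other, and the tests set classes of peaks against each other, not conditions.

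No difference from peaks wholly in introns passed the test. Of those, 29 of 48 recurred in replicate 1 (60.4%, 46.3 to 73.0; odds ratio for the members 0.57, Fisher exact adjusted p = 0.13). In replicate 2, 28 of 197 did (14.2%, 10.0 to 19.8; odds ratio 0.93, Fisher exact adjusted p = 0.81). The intronic peaks are few, and these intervals overlap those of the members, which does not show that the classes are alike.

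**Figure D3:**
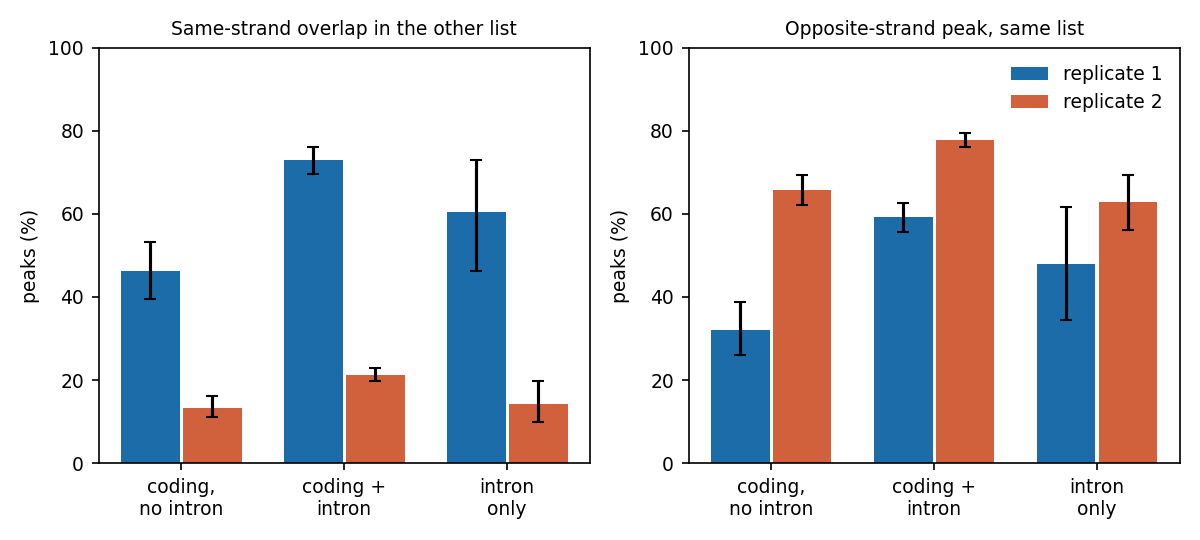
Recurrence (left) and opposite-strand peaks (right) by class of peak. Bars give the percent of peaks in replicate 1 (blue) and replicate 2 (orange) with 95% Wilson intervals; the classes are coding without intron, coding with intron, and intron only. The coding class without intron stands at 46.3% and 13.4% on the left and at 32.0% and 65.8% on the right, below the coding class with intron each time.

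Height and gene were then held closer. Within the 162 boundary peaks of replicate 1 with 30 or more tags, 83.3% recurred, and within the 37 members of that height 45.9% did (31.0 to 61.6). From 19 to below 21 tags the shares were 61.1% of boundary peaks and 47.3% of members. The share of boundary peaks that recurred was thus higher among taller peaks of replicate 1, and among members it stayed between 41.8% and 52.3% in all 4 tag classes. In replicate 2 the members' share was not flat: from the lowest to the tallest tag class 5.73%, 11.5%, 18.97% and 17.4% recurred, beside 9.68%, 13.3%, 23.98% and 34.7% of boundary peaks. Restricted to genes that held both classes, an alternative added after seeing the data, 52.8% of members and 75.5% of boundary peaks recurred in replicate 1 (Fisher exact adjusted p = 0.00055) and 15.2% and 26.4% in replicate 2 (Fisher exact adjusted p = 2.0e-06). Genes with a boundary peak gave members that recurred in 56 of 106 cases in replicate 1. In the remaining genes 38 of 97 did (39.2%, 30.1 to 49.1). In replicate 2 it was 76 of 501 (15.2%, 12.3 to 18.6) against 14 of 172 (8.14%, 4.91 to 13.2). The difference was not tested in either list.

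**Figure D4:**
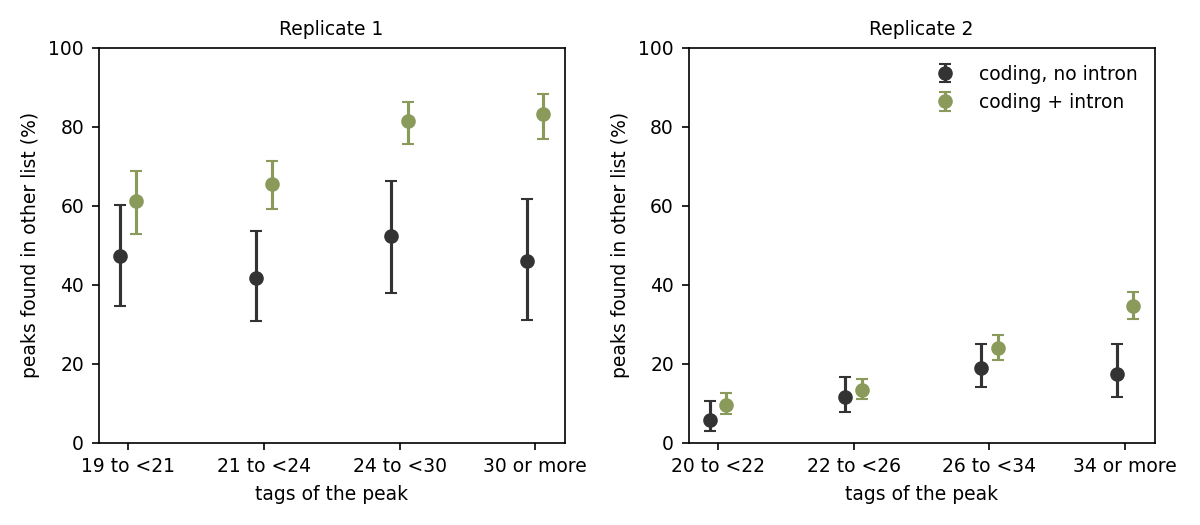
Recurrence by height of the peak. The x axis gives classes of tags and the y axis the percent of peaks with a same-strand overlap in the other list, with 95% Wilson intervals, for coding peaks without intron (black) and with intron (green). In replicate 1 the green points reach 83.3% in the tallest class and the black point there is at 45.9%.

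Some members that did not recur lay near a peak of the other list. Of the 109 in replicate 1, 25 were within 100 nt of a replicate 2 peak on the same strand and 45 within 500 nt (41.3%). Of the 203 boundary peaks that did not recur, 22 were within 100 nt and 52 within 500 nt (25.6%). Intron-only peaks stood where the members did in replicate 1, with 8 of 19 within 500 nt (42.1%). In replicate 2, 66 of 583 members were within 100 nt of a replicate 1 peak and 121 within 500 nt (20.8%). Of 2031 boundary peaks 33 and 189 (9.31%) were, and of 169 intron-only peaks 8 and 13 (7.69%). None of these differences was tested. Most genes of the replicate 1 members, 133 of 150, had a sense peak in replicate 2, and 104 had a member there. Counting either strand, 139 of the 150 had a peak in replicate 2. On that count the shorter list named 922 genes and the longer list 1819, out of 1914 named at all. Most genes of the shorter list were thus also in the longer one, so the 139 of 150 is not particular to the members. No such background was computed for sense peaks alone. In Ahnak, the replicate 1 peak at 205909500 to 205909550 had 29 tags, and replicate 2 had a peak of 32 tags at 205909400 to 205909450, with 1 uncalled bin between them. In Nes, the replicate 1 peak at 173445350 to 173445400 on chromosome 2 had 23 tags, and replicate 2 had a peak of 21 tags upstream of it, again with 1 uncalled bin between them.

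The opposite strand was also read. In replicate 1, 65 of 203 members had a peak of the same list on the opposite strand in their bins (32.0%, 25.99 to 38.7). Among boundary peaks 444 of 750 did (59.2%, 55.6 to 62.7; odds ratio 0.32, Fisher exact adjusted p = 1.6e-11). In replicate 2 it was 443 of 673 members (65.8%, 62.2 to 69.3) against 2009 of 2581 boundary peaks (77.8%, 76.2 to 79.4; odds ratio 0.55, Fisher exact adjusted p = 7.8e-10). The share over all sense peaks was 50.5% in replicate 1 and 73.5% in replicate 2. Other classes stood close to the members: in replicate 2 62.9% of intron-only peaks, 67.5% of coding peaks with 5' UTR and 63.0% of the remaining sense peaks had a partner. In replicate 1 these shares were 47.9%, 48.3% and 35.3%, so a share below that of boundary peaks is not particular to the members. In replicate 2 the difference did not pass among peaks with 34 or more tags, where 76.0% of members and 84.2% of boundary peaks had such a partner (Fisher exact adjusted p = 0.0535). Where a 51-nt member had a partner, the antisense strand took a median of 51.2% of the tags of the pair in replicate 1 (60 members) and 51.7% in replicate 2 (399 members). That median covers only bins called on both strands.

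Some tall members had no antisense peak at all. Of members with 40 or more tags, 8 of 17 in replicate 1 and 22 of 82 in replicate 2 lacked one. Among boundary peaks of that height 8 of 39 and 77 of 460 did, and the difference was not tested. In replicate 2 these members included Setd1a, the gene of a histone methyltransferase, with 93 tags, and Anp32b, a histone chaperone gene, with 84. Eif4g1, the gene of the scaffold of the cap-binding complex of translation, had 82 tags at chromosome 11, 80228400 to 80228450. Ahnak (82 tags), Emilin1 (75 tags) and Plec (63, 52, 51 and 41 tags) belonged here too. In Plec, 1 of 7 members in replicate 1 and 3 of 12 in replicate 2 had an antisense partner. In Pttg1ip, which encodes a binding partner of securin, both lists had the peak and neither had an antisense one. The uncalled strand can still hold tags below the lowest that were called, so its level is bounded and not 0.

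Where a coding peak away from introns was found in both lists, its height varied between them. There were 84 overlapping pairs of members in 71 genes, and 67 of them had the same start and end. A further 9 recurrent members of replicate 1 overlapped a boundary peak of replicate 2, and 1 a peak with 5' UTR. The median pair had 23 tags in replicate 1 and 27 in replicate 2. Replicate 2 was higher in 59 pairs and equal in 3, with a median ratio of 1.21 (quartiles 0.97 and 1.44, range 0.53 to 2.45). Across the 84 pairs Spearman's rho was 0.25 and Pearson's r was 0.34, a description over peaks that share 2 libraries. A pair needs a called peak in both lists, and the lowest members had 19 and 20 tags. Lower heights are thus cut off in both lists, and the coefficients do not cover them. Both members of a pair had an antisense partner in 31 pairs and neither had one in 24.

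**Figure D5:**
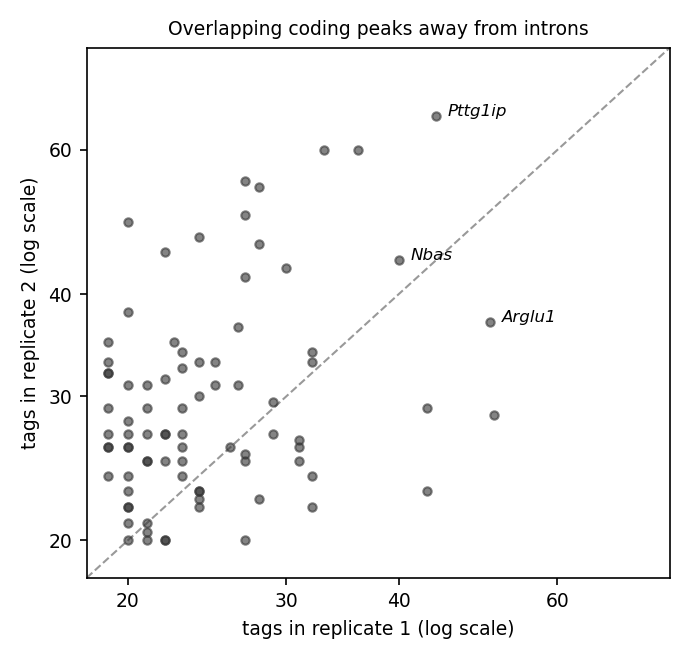
Tags of the 84 overlapping pairs of coding peaks away from introns. Each point is a pair, with tags in replicate 1 on the x axis and tags in replicate 2 on the y axis, both on a log scale; the dashed line marks equal tags. Most points, 59 of 84, lie above the line, and Pttg1ip with 44 and 66 tags stands highest.

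By mean rank of tags the first pair was that of Pttg1ip at chromosome 20, 11036050 to 11036100 (minus strand), where 44 tags in replicate 1 stood against 66 in replicate 2. Eif3b, a subunit gene of translation initiation factor eIF3, followed with 36 and 60 tags at chromosome 12, 14220700 to 14220750. A further Eif3b pair at 14220550 to 14220600 had 23 and 26. Nbas, a gene of Golgi-to-ER transport, had 40 and 44 tags at chromosome 6, 36112900 to 36112950. Arglu1, a splicing regulator gene, had 50.5 tags over 2 bins in replicate 1 and 37 in replicate 2 at chromosome 16, from 80753700. Tbca, a tubulin-folding cofactor gene, had 28 and 54 tags, and Crim1, the gene of a membrane protein that binds bone morphogenetic proteins, 30 and 43. Of these genes, replicate 2 was the higher in all but Arglu1.

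Other gene groups were read against the same backgrounds, per gene 22.8% of genes with a sense peak in replicate 1 and 31.3% in replicate 2, and per peak 16.9% and 17.3% of sense peaks. The share per gene is higher where a gene has more peaks, so both are given. Of splicing factor genes with a sense peak, 8 of 39 held a member in replicate 1 (20.5%) and 31 of 49 in replicate 2 (63.3%). Per peak, 10 of their 93 sense peaks were members in replicate 1 (10.8%) and 46 of 225 in replicate 2 (20.4%), below the background in replicate 1 and a little above it in replicate 2. Pairs were found in 7 of them, Arglu1, Hnrnpm, Nono, Rbm39, Srpk2, Srrm2 and Srsf4. Hnrnpm, which encodes an RNA-binding splicing regulator, had 19 and 35 tags at its pair and a further peak of 63 tags in replicate 2. Rbm39 had 31 and 26 tags at its pair, and Nono, a paraspeckle protein gene, had 31 and 25. Ewsr1 had 1 member of 24 tags in replicate 1 and 2 of 22 and 24 in replicate 2, with no pair. Snrnp70, the gene of a core U1 protein, had 2 members in replicate 2 alone, with 53 and 66 tags. Rbm25 itself had no member in replicate 1 and 3 in replicate 2, with 20, 39.3 and 23.3 tags per bin.

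Translation factor genes held members in 7 of 13 genes with a sense peak in replicate 1 (53.8%) and 14 of 24 in replicate 2 (58.3%). Per peak, 38.5% of 26 and 23.7% of 93 sense peaks were members. Beside Eif3b, pairs were found in Eif3c (29 and 29.5 tags), Eif4g1 (19 and 24) and Eif5 (20 and 26). Eef2, the elongation factor that moves the ribosome along mRNA, had 3 members of 20 to 22 tags in replicate 1 and 1 of 25 in replicate 2. Eif3a had 3 in replicate 2 alone, of up to 62.5 tags. Cytosolic ribosomal protein genes, which have short exons, held members in 4 of 13 genes (30.8%) and 13 of 38 (34.2%), and 28.6% of their 14 and 22.4% of their 58 sense peaks were members. Their pairs were Rpl3 with 22 and 45 tags, Rpl8 with 20 and 27 and Rps3a with 20 and 22. Rpl23 had 34 tags in replicate 2 alone. Ribosomal protein genes have many processed copies, so the assignment of their coding reads is uncertain.

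Cytoskeleton and muscle genes, which include Ahnak, Plec, Macf1 and Dst, held members in 9 of 21 genes with a sense peak (42.9%) and 21 of 34 (61.8%). Per peak, 32.1% of 78 and 29.7% of 229 sense peaks were members, and 16 and 31 of these members were in Ahnak and Plec. Flnc, the muscle filamin gene, had a pair of 24 and 30 tags, and Sptbn1, a spectrin gene, had 1 of 19 and 26 tags. The tubulin genes Tuba1b (49.5 tags, replicate 1) and Tuba1a (65 tags, replicate 2) each had a member in 1 list alone. They are near-identical in coding sequence, and the way shared reads were placed is not given in the sources used here. Acta2 and Tpm1 had 1 member each in replicate 2, with 28 and 30 tags.

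Collagen and matrix genes held members in 5 of 15 genes (33.3%) and 13 of 21 (61.9%). Per peak their share was below the background, with 5 of 38 sense peaks in replicate 1 (13.2%) and 17 of 111 in replicate 2 (15.3%). Serpinh1, which encodes a collagen chaperone, had a pair of 24 and 47 tags and a further member of 40 tags in replicate 2. Lamc1, a laminin chain gene, had 1 pair of 23 and 27 tags and a further replicate 2 member of 23. Fn1, the fibronectin gene, had 1 member of 19 tags in replicate 1 and 2 of 23 and 24 in replicate 2, with no pair, and Col16a1 had 21 and 23 tags at different positions. Col1a2 had 1 member of 52 tags in replicate 2. Chaperone genes held a member in 1 of 8 genes in replicate 1 (12.5%) and 11 of 21 in replicate 2 (52.4%), which made 1 of 15 and 17 of 74 sense peaks (23.0%). Hsp90aa1, a cytosolic HSP90 gene, had its only replicate 1 member, of 19 tags, recur. Calr, Canx and Hsp90ab1 had 2 members each in replicate 2 alone, with 20 to 28 tags, and 1 of those in Canx overlapped a boundary peak of replicate 1.

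Tall members found in 1 list alone were present on both sides. Genes with a member in replicate 1 and none in replicate 2 were led by H2ac20 (108 tags), Col1a1 (85 tags, with 80 on the antisense strand) and Atf5, a stress transcription factor gene (51 tags, with 72 antisense). In replicate 2 they were led by Smtn, the gene of the actin-binding protein smoothelin, with 100 tags and 106 on the antisense strand. Serbp1, an mRNA-binding protein gene, had 88 and 91, and Anp32b had 84 with no antisense peak. The tallest member of all, 188 tags in replicate 1, lay on the unplaced scaffold_131 in LOC108351097, an identifier without a gene name. That identifier held 5 members in replicate 1 (25 to 188 tags) and 1 in replicate 2 (35 tags), in different bins. Without unplaced scaffolds and the mitochondrial chromosome, 48.0% of replicate 1 members and 13.5% of replicate 2 members recurred.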

How the data were processed

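The authors deposited 1 peak list per IP sample; the lists were matched to samples by the sample name they carry. Per the submitters' processing notes, alignment involved HISAT2 and build mRatBN7.2. How peaks were called, filtered, compared with input and annotated is not given in the sources used here. Tags, as deposited, are a signal, whole in 51-nt peaks and a mean over bins in longer ones. The deposited p-values and lengths served to filter and describe peaks.

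Overlaps, antisense partners and Wilson intervals were computed with Python 3.11.15, pandas 2.3.3 and scipy 1.17.1; touching ends were no overlap. The 6 two-sided Fisher exact tests were adjusted by Benjamini-Hochberg, with a threshold of 0.05, and the procedure was tested on simulated data. The members, gene lists and tests were chosen with earlier results of these data known, among them that boundary peaks recur more often than other sense peaks, so that difference is no independent support.

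Named genes, passing over unnamed identifiers such as LOC108351097, were the 12 with the most members (ties in alphabetical order), the 10 best-ranked shared members, genes with a shared member in the long-exon and few-exon lists, up to 4 per other list, and the 3 strongest per list with none in the other. Other genes were chosen after their values were seen. Of 524 member genes, 510 matched a RefSeq symbol (GRCr8, names alone) and 5 a synonym. No genome of the build was used, so no sequence is printed.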

Additional observations from a re-analysis of the deposited data

How the results depend on the processing

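The share of members that recurred moved with the threshold and the overlap rule. With peaks limited to those at or below the median deposited p-value of each list, 79 members of replicate 1 and 300 of replicate 2 were kept, and 30.4% and 8% recurred. With the same start and end required, 33.0% and 9.96% did, and with overlap on either strand 53.2% and 21.7%. The share of sense peaks that are members was 17.2% with both lists pooled. Leaving 1 replicate out only gives back the share of the other list, 16.9% or 17.3%, so it is no check of this share. The lower recurrence against boundary peaks held its direction and passed under all 13 alternatives in each list, with odds ratios of 0.17 to 0.42 in replicate 1 and 0.40 to 0.68 in replicate 2. These alternatives draw on the same lists, and the higher recurrence of boundary peaks was known before the tests were chosen. The passes are therefore no independent support. Against intron-only peaks no alternative passed, and with 51-nt peaks alone the replicate 2 odds ratio was 1.02 (Fisher exact adjusted p = 1). The antisense difference passed except among replicate 2 peaks at or above the upper quartile of tags (odds ratio 0.60, Fisher exact adjusted p = 0.0535). That alternative and the limit to genes with both classes were chosen after seeing the data. No paired analysis was possible because the inputs were not analysed here and each IP gives 1 peak list. Library depth is unknown, so a peak missing from a list is not shown to be absent from those cells.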
